A study of Mus musculus with 14 samples.

Results

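Spleen Ter cells carry the erythroid antigen Ter-119 and lack CD45 and the lineage antigens (Ter-119+ CD45- Lin-); here they were compared with CD45+ Ter-119- cells of the spleen, the study's control, by RNA sequencing. Each group had 2 samples, 4 of the 14 samples of the series, and both came from tumour-bearing wild type C57BL/6 mice. The other 10 samples are Ter cells of the embryonic liver (E14.5) and, from wild type bone marrow, HSC, CLP, MEP and CMP. Every group was sorted to a purity above 98%, per the labels. The age and sex of the mice, the tumour, and whether each sample of a pair had its own donor animals are not stated in the sources used. The authors' table gives, for each group, 1 value per gene in FPKM (read fragments adjusted for transcript length in kilobases and for the library's total), the authors' mean of the 2 samples. Of its 49583 genes, 13835 reached 1 FPKM in spleen Ter or in CD45+ cells and were taken as the genes of the comparison.

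Ter-119 is a surface antigen that appears on erythroblasts and stays on the red cell, while CD45 is a tyrosine phosphatase of nucleated blood cells that erythroid cells lose as they mature. Red cell maturation fills the cell with globin and heme, builds a membrane studded with blood group proteins, and then removes ribosomes, mitochondria and nucleus. The spleen makes red cells under stress, stores platelets and neutrophils in its red pulp, and clears aged red cells through iron-recycling macrophages. Its white pulp holds the B and T lymphocytes that make up most CD45+ spleen cells.

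The control column has no error, because only its mean was deposited, so no difference from it could be tested. For spleen Ter the 2 libraries behind the mean were recovered from its digits for 11349 of the 11500 genes at 1 FPKM or more; they are called A (an estimated 15107438 fragments) and B (14545383 fragments) and carry no replicate number. Many of the highest values, among them those of the globins, were not recovered and are given as means. The libraries differed: of 13204 recovered genes in the comparison, 2665 were at least 2-fold higher in library B and 554 at least 2-fold higher in library A, on the log2(FPKM + 1) scale used throughout. Library B was the higher for 73.6% of these genes and library A for 23.6%. A gene is described below as outside the control's mean where both libraries lie on one side of it by at least 2-fold.

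The spleen Ter column also shares a number format with the liver Ter, MEP and CMP columns, while the control shares another with HSC and CLP. For this reason 395 genes were set aside that were at 5 FPKM or more in CD45+ cells, HSC and CLP and at least 10-fold lower in each of the other 4 columns; 237 of them were processed pseudogenes and 75 protein-coding. No gene met the mirror image of the rule. Of the 13440 genes left, 1865 (13.9%) had a mean in spleen Ter of 2-fold the control's or more and 3532 (26.3%) a mean below it by as much; the median log2 difference was -0.28. Over the recovered genes, 868 (6.57%) were at least 2-fold higher in both libraries and 2661 (20.2%) lower in both by as much. Higher genes were 34.6% of all genes past 2-fold, which became 51.2% after scaling by the median of ratios, 54.7% after quantile normalization and 46.0% after leaving globin genes out of the totals. The median of all genes was 0.03, 0.10 and -0.07 under these scalings, so list medians below are read against -0.28.

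Genes of the sex chromosomes split the groups. Xist, the RNA that silences an X chromosome in female cells (chromosome X, 103460366 to 103483254 in mm10, as are all positions below), had no fragment in either spleen Ter library and 19.8 FPKM in CD45+ cells. Ddx3y, a Y-linked RNA helicase, had 14.51 and 27.3 FPKM in libraries A and B and is listed at 0 in CD45+ cells. Eif2s3y, a Y-linked translation factor subunit, had 16.003 and 31.7 FPKM and is also listed at 0 in CD45+ cells. The same split runs through the number formats: MEP and CMP held the Y-linked genes with Xist at 0.00391 FPKM in MEP and 0 in CMP, liver Ter held both (Xist 22.1 and Ddx3y 1.38 FPKM), and HSC and CLP held Xist at 54.3 and 43.2 FPKM with Ddx3y at 0 and 0. Sex, the number format and the sort thus cannot be told apart in this comparison. Without genes of the X and Y chromosomes, 1820 genes were higher and 3377 lower.

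**Figure D1:**
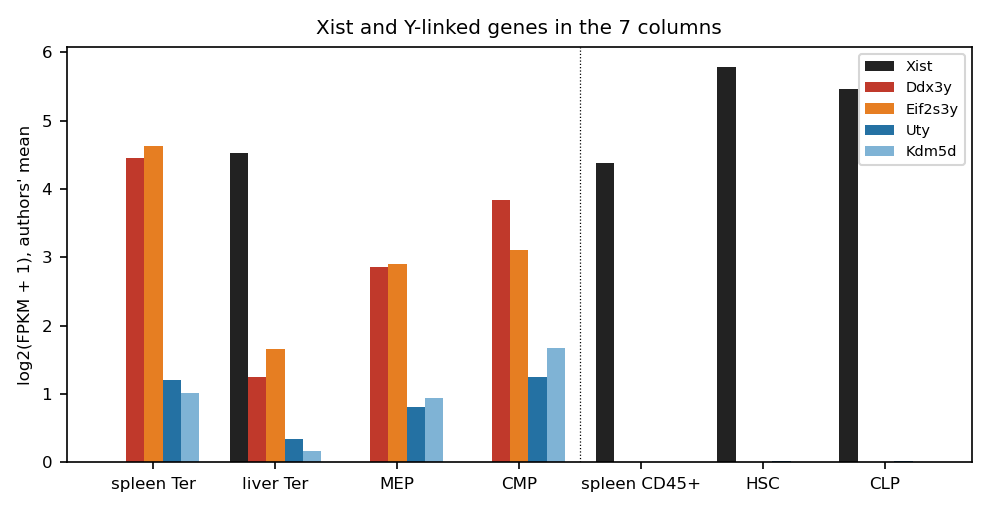
Levels of Xist and of 4 Y-linked genes as log2(FPKM + 1) of the authors' mean in each of the 7 columns; the dotted line separates the 2 number formats. Spleen Ter, at the far left, has the Y-linked genes and no Xist, while the control, HSC and CLP have Xist and bars at or near 0 for the Y-linked genes.

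The sort was checked on red cell, lineage and leukocyte genes. The adult beta-globin gene Hbb-bs averaged 22394 FPKM in spleen Ter and 45.7 in CD45+ cells. The gene of CD45 was not analysed here. Of 11 lineage antigen genes, 1 was higher by at least 2-fold, 2 lower and the other 8 in between, so lineage transcripts were present in the Lin- sort: the cytotoxic T cell gene Cd8a had 27.3 and 27.7 FPKM in libraries A and B of spleen Ter, against 32.4 in CD45+ cells. Cd79a, a chain of the B cell receptor outside that list, had 555 and 626 FPKM, against 502 in CD45+ cells. Ly6g, the neutrophil antigen (chromosome 15, 75155240 to 75159126), had 102 and 16.3 FPKM, against 0.922 in CD45+ cells. Cd4, the helper T cell coreceptor, had 2.36 and 12.0 FPKM, against 78.6 in CD45+ cells. In such bulk samples, fewer cells of a type and less RNA per cell cannot be told apart.

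Red cell surface genes were higher in spleen Ter by the means, and mostly through library A. Of 17 blood group and red cell surface genes, 8 were higher by 2-fold or more and 0 lower; the median was 0.82, or 1.501 for library A and 0.04 for library B; 2 of the 17 were higher in both libraries. Of the 8 higher genes, 3 also split by number format. For these 3, spleen Ter, liver Ter, MEP and CMP were each at least 2-fold above CD45+ cells, HSC and CLP. The same held for 38 of all 1865 higher genes. Library A was the higher for 13 of the 17. The upstream sequences of 3 members and of Alas2, an erythroid enzyme of heme synthesis, are shown because the data give a group of erythroid genes that stood high in the same library, and the GATA factors of red cell development bind words of this kind. Each line gives the 250 bases before the RefSeq start (GRCm38.p6, 5′ to 3′ on the gene's strand), with the word AGATAA on either strand in capitals, where T was also allowed as its first base and G as its last.
Alas2, chrX:150547167-150547416, plus strand: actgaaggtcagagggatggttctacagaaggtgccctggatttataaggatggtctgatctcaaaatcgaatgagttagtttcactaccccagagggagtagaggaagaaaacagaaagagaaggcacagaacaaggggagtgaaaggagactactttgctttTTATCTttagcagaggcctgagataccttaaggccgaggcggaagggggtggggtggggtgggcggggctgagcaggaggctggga
Rhd, chr4:134864286-134864535, plus strand: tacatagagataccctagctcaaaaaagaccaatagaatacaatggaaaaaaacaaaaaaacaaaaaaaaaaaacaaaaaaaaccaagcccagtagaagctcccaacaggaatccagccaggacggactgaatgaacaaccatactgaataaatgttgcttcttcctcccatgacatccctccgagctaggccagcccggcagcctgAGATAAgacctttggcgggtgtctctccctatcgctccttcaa
Rhag, chr17:40810899-40811148, plus strand: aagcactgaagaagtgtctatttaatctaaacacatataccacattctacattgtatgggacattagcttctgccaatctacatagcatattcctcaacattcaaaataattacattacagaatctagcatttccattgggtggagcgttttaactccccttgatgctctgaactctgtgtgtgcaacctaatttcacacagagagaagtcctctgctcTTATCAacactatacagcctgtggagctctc
Kel, chr6:41704326-41704575, minus strand: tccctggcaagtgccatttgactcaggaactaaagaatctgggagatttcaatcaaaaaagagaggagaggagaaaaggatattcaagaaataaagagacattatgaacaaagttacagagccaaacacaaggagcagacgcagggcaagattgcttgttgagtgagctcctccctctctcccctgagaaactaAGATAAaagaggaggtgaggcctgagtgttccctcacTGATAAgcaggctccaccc
The word starts at position -86 in Alas2, -43 in Rhd, -31 in Rhag, and -56 and -19 in Kel, counted from -1 at the base before the start. Of the 8 higher members of the list 6 had an entry and all 6 held such a word, as did 1 of the 3 other members with an entry and 27.6% of 22862 upstream windows of the same length. It was not confined to red cell genes: 12 of 21 higher mature neutrophil genes with an entry held it, and 3 of 15 higher C1q and red pulp macrophage genes. A word of this kind is a description of the sequence and no evidence of binding.

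Rhd, the Rh blood group antigen, had 40.1 FPKM in spleen Ter library A and 0.0431 FPKM in its library B, against 0.402 in CD45+ cells. Rhag, the ammonium channel subunit that carries it, had 25.1 and 0.882 FPKM, against 0.0446 in CD45+ cells. Kel, the Kell blood group protease, had 12.4 and 0.0496 FPKM, against 0.176 in CD45+ cells. For Rhd and Kel the control thus lies between the libraries, so that library B alone gives a difference of the opposite sign. Trim10, a ubiquitin ligase of terminal erythroid differentiation, had 43.5 and 1.65 FPKM, against 0.381 in CD45+ cells. Car1, a red cell carbonic anhydrase, had 116 and 16.4 FPKM, against 1.26 in CD45+ cells, and so was above it in both libraries. Among the list's members within 2-fold of the control were Cd24a, Tfrc, the transferrin receptor, and Cd44.

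Several other red cell genes were highest in library A. Alas2, the erythroid enzyme that starts heme synthesis, had 366 and 32.3 FPKM, against 0.689 in CD45+ cells. Bpgm, which makes the 2,3-bisphosphoglycerate that lowers the oxygen affinity of hemoglobin, had 185 and 12.8 FPKM, against 4.30 in CD45+ cells. Both genes were above the control in both libraries, and over 10-fold higher in library A than in library B. Ube2l6, a ubiquitin-conjugating enzyme (chromosome 2, 84798828 to 84810335), had 345 and 31.6 FPKM, against 4.28 in CD45+ cells. In the list of organelle clearance it was 1 of 3 higher genes of 15, with 1 lower and a median of 0.45, and library A was the higher for 7 of its 14 recovered genes and library B for the other 7. Bnip3l, the receptor that takes mitochondria to autophagy in reticulocytes, had 113 and 39.5 FPKM, against 55.7 in CD45+ cells.

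Red cell metabolism held 6 higher and 3 lower genes of 15, against 13.9% and 26.3% of all genes, with a median of 0.75. Over its 13 recovered genes, 2 were higher and 1 lower in both libraries. Exons of 2 of the 3 lower genes overlap another gene. The antioxidant Gpx1, a glutathione peroxidase, averaged 1629.7 FPKM in spleen Ter and 96.9 in CD45+ cells. Prdx2, the peroxiredoxin of red cells, had 179 and 27.5 FPKM, against 18.4 in CD45+ cells. The 3 lower genes were the glycolytic enzymes Gpi1, Hk1 and Pgk1, while Ldha, Tpi1 and Aldoa were within 2-fold of the control. Epor, the erythropoietin receptor, had 3.69 and 2.87 FPKM, against 0.0732 in CD45+ cells. It is a growth factor receptor of early erythroid cells, and was nearly level between the libraries.

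Iron-handling genes were higher than the control or within 2-fold of it. Of 13 counted, 6 were at least 2-fold higher and 0 lower, with a median of 0.77. Library B was the higher for 8 of 11 recovered genes and library A for 3, about as for all genes. Hmox1, the oxygenase that opens heme for iron recycling (chromosome 8, 75093621 to 75100589), had 18.0 and 136 FPKM in libraries A and B of spleen Ter, against 5.58 in CD45+ cells. Slc40a1, ferroportin, the iron exporter, had 4.99 and 29.6 FPKM, against 0.556 in CD45+ cells. Slc25a37, mitoferrin, which feeds iron to heme synthesis, had 41.1 and 6.54 FPKM, against 13.5 in CD45+ cells. Hmox1 and Slc40a1 were thus higher in library B, and Slc25a37 in library A. The ferritin light chain gene Ftl1 had 687 and 590 FPKM, against 243 in CD45+ cells, with little difference between the libraries.

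**Figure D2:**
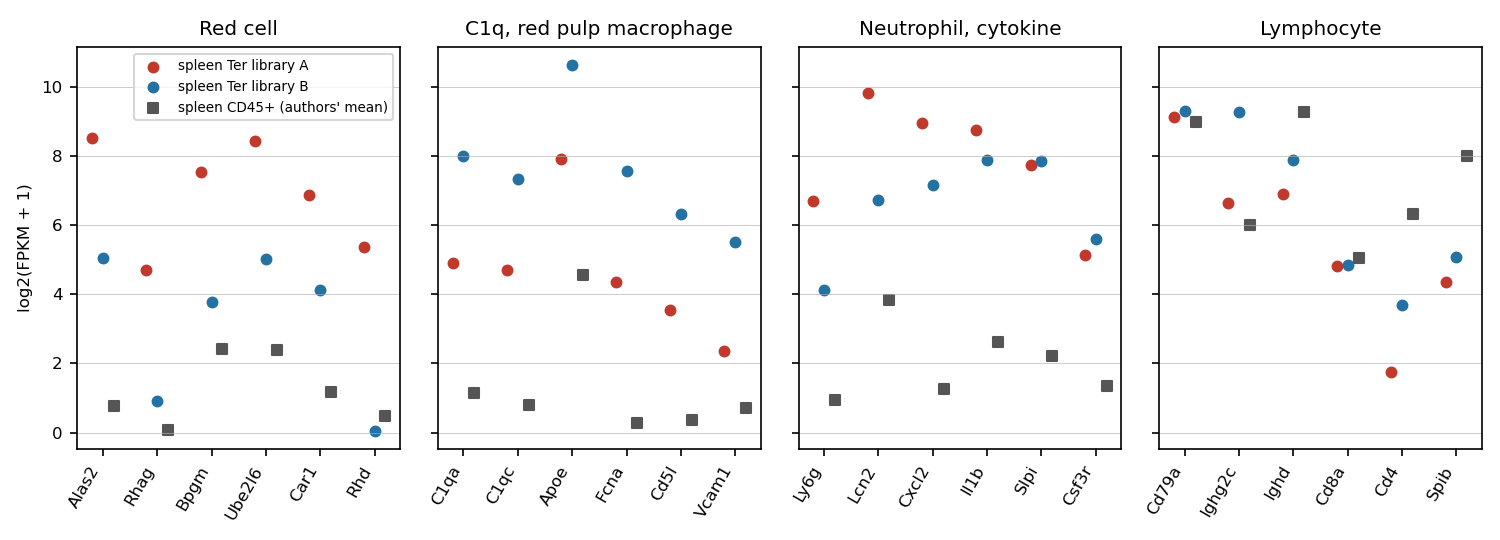
Levels as log2(FPKM + 1) of 24 genes in 4 groups: spleen Ter library A (red), spleen Ter library B (blue) and the authors' mean of the control (grey square). Red cell genes stand highest in library A, C1q and red pulp macrophage genes highest in library B, and neutrophil and cytokine genes above the control in both.

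The C1q and red pulp macrophage list was higher nearly throughout: 25 of its 28 members passed 2-fold upward, 0 downward, and 15 were higher in both libraries. Its median was 2.81, or 1.14 for library A and 3.59 for library B, and all 28 genes were higher in library B than in library A, against 73.6% of all recovered genes. C1qa, a chain of the first complement component (chromosome 4, 136895917 to 136898803), had 29.1 and 256 FPKM in libraries A and B of spleen Ter, against 1.23 in CD45+ cells. Fcna, ficolin A, a lectin of splenic macrophages (chromosome 2, 25624666 to 25628030), had 19.7 and 190 FPKM, against 0.223 in CD45+ cells. Apoe, the lipid carrier apolipoprotein E, had 239 and 1576 FPKM, against 22.6 in CD45+ cells. Each of these was above the control in both libraries and at least 6 times higher in library B. Spic, the transcription factor of red pulp macrophages, had 3.79 and 17.1 FPKM, against 0.556 in CD45+ cells. Vcam1, an adhesion molecule of those macrophages, had 4.14 and 44.5 FPKM, against 0.643 in CD45+ cells. Mertk, a receptor for the uptake of dying cells, had 0.275 and 13.1 FPKM, against 0.156 in CD45+ cells, so only library B lay clear of it. The 3 genes of the list within 2-fold were Maf, Trf and C3.

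Among lists of more than 1 gene, mature neutrophil genes had the highest median but for the globins. Of its 26 members 25 were past 2-fold above the control, 21 of them in both libraries, and 0 below; the median was 4.10, and Mmp25 was the exception. Slpi, a secreted inhibitor of neutrophil elastase (chromosome 2, 164354070 to 164389095), had 214 and 231 FPKM, against 3.65 in CD45+ cells. Csf3r, the G-CSF receptor, had 34.0 and 47.9 FPKM, against 1.56 in CD45+ cells. Asprv1, a protease gene expressed in mature neutrophils, had 71.4 and 47.7 FPKM, against 0.332 in CD45+ cells. These 3 were close between the libraries, whereas library A was the higher for 18 of the 23 recovered members, against 23.6% of all recovered genes. Stefin genes that lie together on chromosome 16, Stfa1 and Stfa2, had 50.6 and 18.9 FPKM as means and are listed at 0 in CD45+ cells; near-identical copies make the split among them uncertain.

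Granule genes followed. Of 15 secondary and tertiary granule genes 13 were higher and 0 lower (median 3.55), and of 9 primary granule genes 8 were higher and 1 lower (median 3.36). In both libraries 6 and 4 of them were higher, over the 10 and 6 recovered, and library B alone gave medians of 2.28 and 1.32. Lcn2, the iron-withholding lipocalin of secondary granules (chromosome 2, 32384633 to 32388252), had 896 and 105 FPKM, against 13.3 in CD45+ cells. Ltf, lactoferrin, had 577 and 54.1 FPKM, against 36.3 in CD45+ cells. Mmp8, the neutrophil collagenase of the same granules, had 58.2 and 60.9 FPKM, against 1.12 in CD45+ cells. Lcn2 and Ltf were thus far higher in library A, and Mmp8 level. Among primary granule genes the elastase gene Elane averaged 133.57 FPKM in spleen Ter and 0.681 in CD45+ cells, and Prtn3, proteinase 3, had 55.1 and 7.42 FPKM, against 0.596 in CD45+ cells. The lower gene was Gfi1, a transcriptional repressor needed for neutrophil development, at 2.12 and 4.72 FPKM, against 7.99 in CD45+ cells. The word GAGGAAGT, which the myeloid factor PU.1 binds, lay upstream of 3 of 6 higher primary granule genes with an entry and 3 of 11 higher secondary granule genes, but of 1 of 21 higher mature neutrophil genes, against 2.45% of all windows.

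Chemokine genes were higher as well. Of 17 chemokine genes 14 were higher by 2-fold or more and 0 lower (median 1.65). The upstream window of Cxcl2 is shown because it was the chemokine gene furthest above the control and holds 2 copies of the NF-kB-like word GGNNTTTCC (either strand), in capitals from positions -96 and -77.
Cxcl2, chr5:90903649-90903898, plus strand: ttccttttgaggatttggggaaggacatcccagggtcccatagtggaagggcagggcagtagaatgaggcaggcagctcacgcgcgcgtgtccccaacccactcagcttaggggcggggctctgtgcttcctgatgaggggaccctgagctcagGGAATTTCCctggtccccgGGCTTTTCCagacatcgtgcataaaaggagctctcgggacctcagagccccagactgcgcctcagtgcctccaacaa
That word lay in 3 of 8 higher chemokine genes with an entry, 1 of 3 others, and 4.86% of all windows. Cxcl2, a neutrophil attractant, had 492 and 143 FPKM in libraries A and B of spleen Ter, against 1.38 in CD45+ cells. Ccl6, a macrophage chemokine, had 160 and 197 FPKM, against 12.3 in CD45+ cells. Ccl24, which attracts eosinophils, had 0.664 and 10.3 FPKM, against 0.0391 in CD45+ cells. Xcl1, made by cytotoxic lymphocytes, and Cxcl10 were within 2-fold of the control.

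Among cytokine genes 8 of 22 were higher and 1 lower (median 0.43). Il1b, interleukin 1 beta (chromosome 2, 129364570 to 129371139), had 431 and 236 FPKM, against 5.09 in CD45+ cells. Osm, oncostatin M, had 35.4 and 19.1 FPKM, against 1.22 in CD45+ cells. Il18, an inducer of interferon gamma, had 6.55 and 30.7 FPKM, against 1.69 in CD45+ cells. These were above the control in both libraries, whereas Tnf, Ifng and Ltb were within 2-fold of it. The lower gene was Tgfb1, at 6.45 and 10.6 FPKM, against 31.5 in CD45+ cells. Of 19 TGF-beta pathway genes 0 were higher and 6 lower, not far from the 26.3% of all genes (median -0.50). Its signal transducer Smad3 had 2.41 and 3.26 FPKM, against 17.9 in CD45+ cells, and the receptor gene Tgfbr2 had 6.95 and 19.2 FPKM, against 45.7 in CD45+ cells. Smad2, Smad4 and Smad5 were within 0.1 of the control on the log2 scale, by the means.

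Smaller leukocyte groups went the same way. For eosinophils 5 of 7 genes were higher, 2 of them in both libraries, and 0 lower, with Prg2, the granule major basic protein, at 117 and 29.4 FPKM, against 1.70 in CD45+ cells. For mast cells and basophils 5 of 8 were higher, 2 of them in both libraries, and 1 lower, with Mcpt8, a basophil protease, at 17.9 and 1.37 FPKM, against 0.150 in CD45+ cells. In the platelet list 13 of 16 genes were higher, 12 of them in both libraries, and 1 lower. Itga2b, an integrin of platelets, had 2.84 and 10.2 FPKM, against 0.469 in CD45+ cells. The lower gene was its partner Itgb3, at 3.49 and 4.89 FPKM, against 9.73 in CD45+ cells. Fc receptor and Siglec genes were higher for 13 of 20 and lower for 3; Fcer1g, the shared signalling chain, had 410 and 341 FPKM, against 39.5 in CD45+ cells, and the lower 3 were Cd22, Siglech and Fcrl1.

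**Figure D3:**
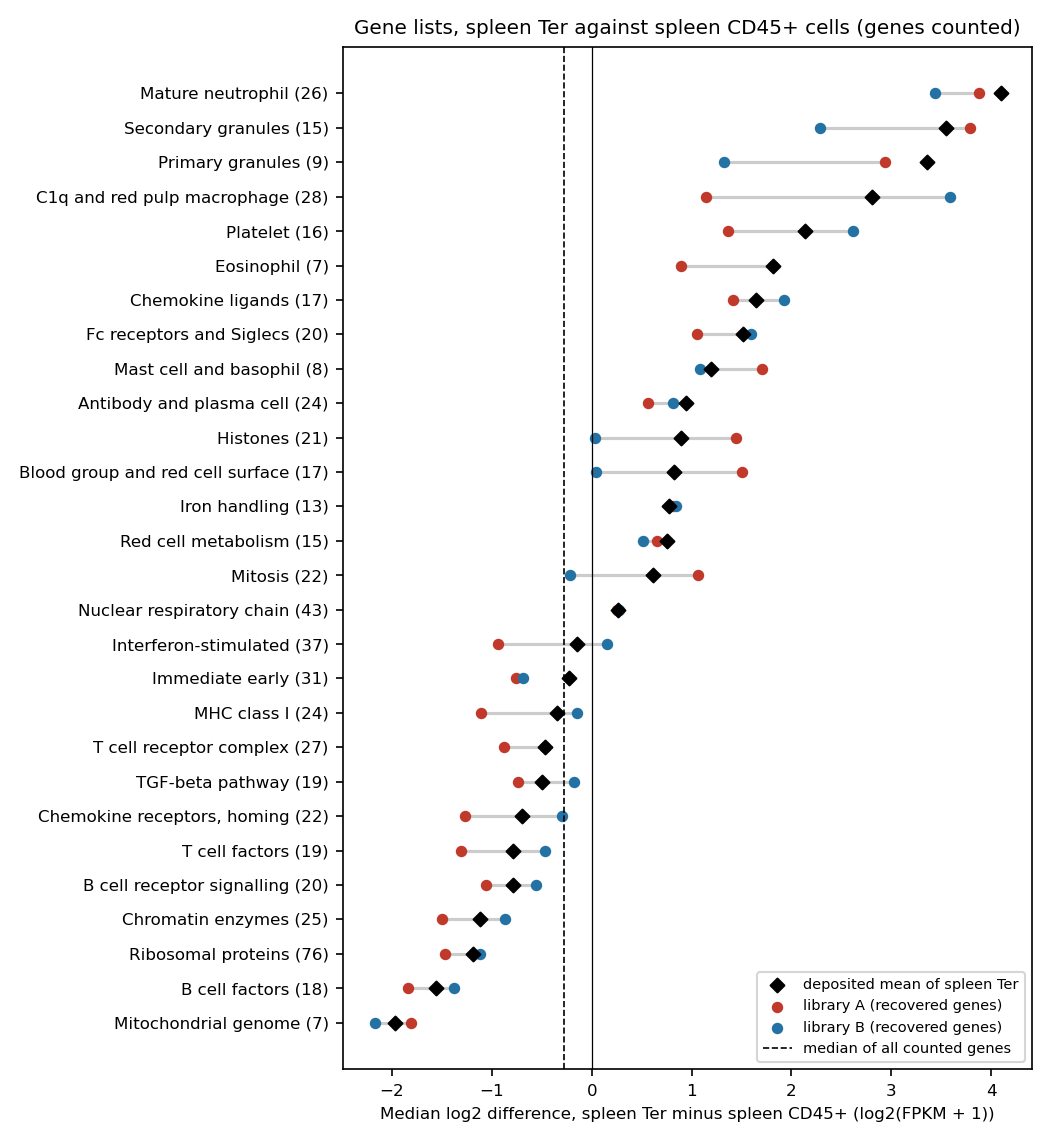
Median log2 difference, spleen Ter minus control, of 28 gene lists with the number of genes counted; diamonds use the deposited mean of all counted genes, and dots the recovered genes in library A and library B. Neutrophil lists lie furthest right and the mitochondrial genome and B cell factors furthest left, with the median of all genes (dashed) at -0.28.

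Immunoglobulin genes lay on both sides of the control. Of 24 antibody and plasma cell genes 12 were higher and 3 lower (median 0.95), against 13.9% and 26.3% of all genes. Ighg2c, a heavy chain constant gene of switched IgG antibodies (chromosome 12, 113285325 to 113288932), had 99.5 and 616 FPKM in libraries A and B of spleen Ter, against 63.6 in CD45+ cells. Ighg3, another IgG class, had 64.5 and 99.6 FPKM, against 14.3 in CD45+ cells. Ighd, the constant gene of naive B cells, had 120 and 234 FPKM, against 622 in CD45+ cells. Both libraries thus lay above the control for IgG3 and below it for IgD. The joining chain gene Jchain had 246 and 332 FPKM, against 118 in CD45+ cells. Prdm1 and Sdc1, a regulator and a surface marker of plasma cells, were within 2-fold of the control. Of 202 immunoglobulin variable segments 38 were higher and 57 lower, not far from these shares of all genes, with a median of -0.21.

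The factors that set B cell identity were lower. Of 18 such factors 0 were higher and 14 lower, 11 of them in both libraries (median -1.56). Spib, an Ets factor related to PU.1 (chromosome 7, 44525993 to 44532071), had 19.6 and 32.8 FPKM, against 255 in CD45+ cells. Pou2f2, the octamer factor OCT2, had 5.37 and 16.1 FPKM, against 156 in CD45+ cells. Its coactivator Pou2af1 had 38.5 and 84.7 FPKM, against 345 in CD45+ cells. In B cell receptor signalling 9 of 20 genes were lower and 0 higher, with a median of -0.79; the kinase Syk had 18.9 and 28.1 FPKM, against 82.9 in CD45+ cells, while Cd79a and Lyn were within 2-fold. Pax5, Pou2f2 and 4 of the other 12 lower factors have exons that overlap those of another gene, which the counting could have split.

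T cell factors went the same way by smaller amounts, with 9 of 19 lower, 0 higher and a median of -0.79. In both libraries 4 of 18 recovered ones were lower, near the 20.2% of all recovered genes. Exons of 6 of the 9 overlap another gene, and the median was -0.48 without overlapping genes. In the T cell receptor list 8 of 27 were lower, near the 26.3% of all genes, and 1 higher; its median was -0.47, or -0.24 to -0.12 under the 3 scalings. Foxp3, the factor of regulatory T cells, averaged 0.437 FPKM in spleen Ter and 10.1 in CD45+ cells; it lies on chromosome X and its exons overlap another gene. Zbtb7b, the factor of the helper T cell lineage, had 1.30 and 1.99 FPKM, against 11.5 in CD45+ cells. Cd8b1, the other CD8 chain, had 205 and 148 FPKM, against 117 in CD45+ cells. Foxp3, Zbtb7b and Cd4 were thus lower, while Cd8a and Cd8b1 were within 2-fold. Of 115 T cell receptor variable segments 69 were lower and 1 higher, with a median of -1.11. Of 22 cytotoxic genes 4 were higher and 5 lower, not far from the 13.9% and 26.3% of all genes. The granzyme gene Gzma had 24.8 and 46.8 FPKM, against 147 in CD45+ cells. Nkg7 had 387 and 369 FPKM, against 133 in CD45+ cells.

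Homing genes lay on both sides of the control. Of 22, 4 were higher and 8 lower, against 13.9% and 26.3% of all genes. In both libraries 4 were higher and 7 lower, against 6.57% and 20.2% of all recovered genes. The list's median was -0.70, and -0.14 without overlapping genes. The 4 higher were the chemokine receptors Ccr1, Ccr2, Ccr3 and Cxcr2 of myeloid cells. Ccr1 had 26.3 and 23.9 FPKM, against 1.22 in CD45+ cells. The lower ones included Ccr7, the lymph node homing receptor, at 181 and 118 FPKM, against 476 in CD45+ cells. Cxcr5, the follicle receptor of B cells, had 12.4 and 16.6 FPKM, against 69.8 in CD45+ cells. Itga4, an integrin chain, had 4.21 and 8.32 FPKM, against 35.1 in CD45+ cells.

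Antigen presentation genes were mostly within 2-fold of the control. Of 24 MHC class I genes 0 were higher and 8 lower, a share near the 26.3% of all genes. Their median was -0.34, and 0.03 after scaling by the median of ratios. Exons of 6 of the 8 overlap another gene, and the median was -0.13 without overlapping genes. H2-Q4, a nonclassical class I gene, had 3.95 and 7.998 FPKM, against 201 in CD45+ cells; such genes have near-identical copies, and it lay at least 2-fold lower in all 4 columns of the first number format than in CD45+ cells, HSC and CLP. Tap2, a peptide transporter chain, had 8.77 and 26.4 FPKM, against 42.5 in CD45+ cells. H2-K1, a classical class I gene, averaged 811 FPKM in spleen Ter and 695 in CD45+ cells. Class II genes were 2 higher and 3 lower of 15, near or below the 13.9% and 26.3% of all genes. Cd74, the invariant chain, averaged 4860.2 FPKM in spleen Ter and 2294.5 in CD45+ cells. Ciita, the class II regulator, had 9.81 and 19.2 FPKM, against 35.0 in CD45+ cells.

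Interferon-stimulated genes were 9 higher and 9 lower of 37, against 13.9% and 26.3% of all genes. Their median of -0.15 turned positive under each of the 3 scalings. Ifitm1, an antiviral membrane protein (chromosome 7, 140967221 to 140969825), had 234 and 65.8 FPKM, against 1.78 in CD45+ cells. Rsad2, viperin, had 132 and 16.6 FPKM, against 3.52 in CD45+ cells. Gbp2, a guanylate-binding protein, had 7.87 and 7.43 FPKM, against 29.4 in CD45+ cells. In both libraries 7 of the 37 were higher and 7 lower, against 6.57% and 20.2% of all recovered genes. The list thus held genes outside the control's mean in both directions, the lower ones at a share near that of all genes. Exons of 3 of the 9 lower genes overlap another gene. Gbp2 was among 3 of the 9 lower genes that stood lower in all 4 columns of the first format. Of 21 pattern recognition genes 4 were higher and 5 lower, not far from the 13.9% and 26.3% of all genes. Cd14, a lipopolysaccharide coreceptor, had 71.0 and 57.0 FPKM, against 2.16 in CD45+ cells. Tlr9, the receptor for unmethylated DNA, had 0.362 and 0.158 FPKM, against 23.7 in CD45+ cells. Tlr9 too stood lower in all 4 columns of the first format.

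Immediate early genes, which respond to stimuli within minutes, were 5 higher and 11 lower of 31, against 13.9% and 26.3% of all genes. Fosb had 25.4 and 9.87 FPKM, against 208 in CD45+ cells, and Jun had 88.8 and 74.2 FPKM, against 427 in CD45+ cells. Fos, of the same family, averaged 503 FPKM in spleen Ter and 212 in CD45+ cells. Ier3, a regulator of cell survival, had 53.3 and 35.4 FPKM, against 2.27 in CD45+ cells. Members of 1 transcription factor family thus lay on both sides of the control. Among regulators of apoptosis, Bcl2l1, the survival gene of erythroblasts, had 19.7 and 8.02 FPKM, against 2.51 in CD45+ cells, and Bak1, a pore-forming effector, had 1.07 and 1.74 FPKM, against 25.5 in CD45+ cells.

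Cell division genes were mostly higher in library A than in library B. Of 22 mitosis genes 5 were higher by the means and 1 lower, but 1 was higher in both libraries, and 20 of 22 were higher in library A than in library B, against 23.6% of all recovered genes. Ube2c, a ubiquitin enzyme of mitotic exit, had 39.9 and 3.04 FPKM, against 2.63 in CD45+ cells. Birc5, survivin, had 16.8 and 1.31 FPKM, against 1.46 in CD45+ cells. Library A was thus above the control for both and library B near it. Histone genes were 8 higher and 2 lower of 21, and 19 of 20 recovered ones were higher in library A; the linker histone gene Hist1h1e had 74.2 and 29.0 FPKM, against 4.15 in CD45+ cells. Replication genes were 2 higher and 5 lower of 28, both below the 13.9% and 26.3% of all genes, with a median of -0.42. In both libraries 0 were higher and 4 lower, and library A was the higher for 19 of the 28. Rrm2, a ribonucleotide reductase subunit and 1 of the 2 higher, had 28.3 and 6.65 FPKM, against 4.09 in CD45+ cells.

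**Figure D4:**
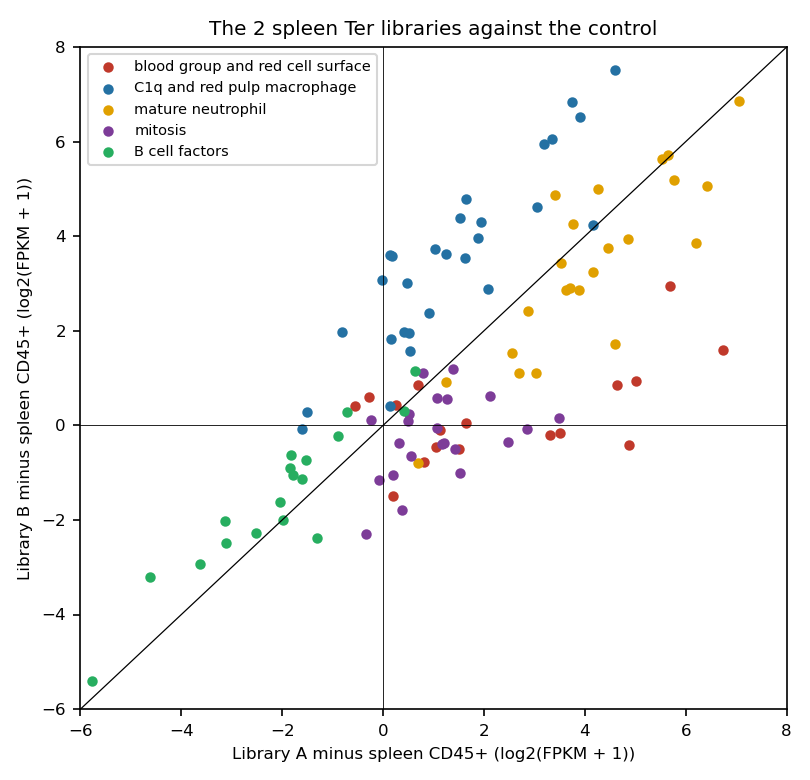
Log2 difference from the control in spleen Ter library A (x axis) and library B (y axis) for the recovered genes of 5 lists; the diagonal marks equal differences. C1q and red pulp macrophage genes lie above the diagonal, red cell surface and mitosis genes mostly below it, and B cell factors mostly at the lower left.

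Ribosome and mitochondrial genes were lower. Of 76 ribosomal protein genes 0 were higher and 52 lower, 36 of them in both libraries, with a median of -1.19, and 3 more had been set aside. Rpl38, of the large subunit, had 268 and 499 FPKM, against 1871.2 in CD45+ cells. Ribosomal proteins have many pseudogene copies, 24 of the 52 overlap another gene's exons, and pseudogenes of ribosomal proteins were themselves lower for 82 of 100. Of the 7 counted genes of the mitochondrial genome 7 were lower in both libraries, and the 6 others had been set aside; 6 of the 7 have exons that overlap another gene, and the 1 without had a difference of -1.16, against a median of -1.97. mt-Co1, a subunit of cytochrome oxidase, had 1119.2 and 830.2 FPKM, against 4320 in CD45+ cells. Of 43 nuclear genes of the respiratory chain 7 were higher, near the 13.9% of all genes, and 2 lower, against 26.3%. Their median was 0.27, and 2 were higher in both libraries. Cox4i1, a nuclear subunit of the same enzyme, had 222 and 281 FPKM, against 76.7 in CD45+ cells.

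Chromatin enzymes were lower by the means, and more actin regulators were lower than higher. Of 25 chromatin genes 0 were higher and 15 lower (median -1.12); Chd4, a nucleosome remodeller, had 10.4 and 12.4 FPKM, against 81.6 in CD45+ cells. Of 23 actin and migration genes 2 were higher and 8 lower, against 13.9% and 26.3% of all genes. The median of -0.18 turned positive under each of the 3 scalings. In both libraries 0 of 18 recovered ones were higher and 8 lower, against 6.57% and 20.2% of all recovered genes. The recovered ones had medians of -1.11 in library A and -0.54 in library B. Exons of 6 of the 8 genes lower by the means overlap another gene. Tln1, talin, which links integrins to actin, had 14.2 and 29.5 FPKM, against 139 in CD45+ cells. Tmsb4x, the main actin monomer binder, averaged 6110.3 FPKM in spleen Ter and 1678 in CD45+ cells.

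Across all protein-coding genes at 20 FPKM or more in spleen Ter, the 15 furthest above the control, Lars2 apart, were red cell, neutrophil, macrophage and chemokine genes. They included 4 globins (Hbb-bs, Hba-a1, Hbb-bt and Hba-a2), Alas2, the neutrophil genes Retnlg, Stfa2l1, Elane and Wfdc17, the macrophage genes C1qa, C1qb and Fcna, the chemokine gene Cxcl2, and Lars2. Lars2, the mitochondrial leucyl-tRNA synthetase, averaged 201 FPKM in spleen Ter and 1.37 in CD45+ cells. The 15 furthest below, at 20 FPKM or more in CD45+ cells, were Rpl23a, Tpm3-rs7, Pax5, H2-Q4, Lbh, Trex1, Chtf8, Prrc2a, Tlr9, Ddx23, Npm3, Ell3, Pip4k2b, Sun2 and Hnrnpul2. Rpl23a, a ribosomal protein, had 8.91 and 6.41 FPKM in libraries A and B of spleen Ter, against 2487.4 in CD45+ cells. It had 102, 47.5 and 194 FPKM in liver Ter, MEP and CMP, against 2223 and 1746.7 in HSC and CLP. Its exons overlap another gene. Ddx23, a splicing helicase, had 1.41 and 0.731 FPKM, against 38.4 in CD45+ cells. All of the 15 but Sun2 had recovered libraries, and both libraries of each lay more than 8-fold below the control. Of these 15, 7 were at least 2-fold lower in all 4 columns of the first format than in CD45+ cells, HSC and CLP. They were Rpl23a, Pax5, H2-Q4, Lbh, Trex1, Tlr9 and Ell3. Trex1, a DNA exonuclease, is listed at 0 in all 4 columns.

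Gene structure moved with the difference. Protein-coding genes with exons under 1 kb in all had a median log2 difference of 0.66, those of 2 to 4 kb -0.04, and those of 8 kb or more -0.60; library A gave 0.45, -0.37 and -0.89, and library B 0.50, 0.17 and -0.40. In MEP minus HSC, which also crosses the number formats, the order was the reverse, with -1.05 under 1 kb and -0.35 at 8 kb or more. CMP minus HSC, another such pair, had -0.35 under 1 kb and was near 0 from 2 kb upward. Of protein-coding genes at least 8-fold lower in spleen Ter, 46.8% had an exon that overlaps another gene, against 11.2% of those at least 8-fold higher. Genes lower in the whole first format were 39.2% of the protein-coding genes at least 8-fold lower and 8.44% of those between 2-fold and 4-fold lower. Over all gene types they were 1035 of the 3532 lower genes. The part of length, overlap and number format in the differences above was not tested. Without genes that overlap another gene, 1522 of 9029 genes were higher and 2307 lower.

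**Figure D5:**
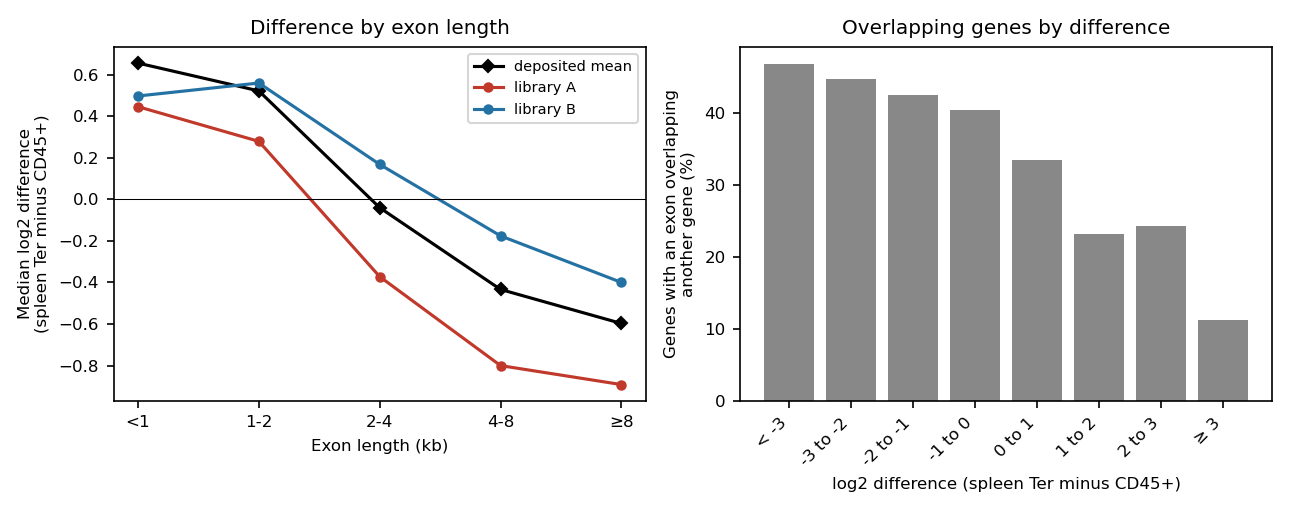
Left, median log2 difference, spleen Ter minus control, of protein-coding genes by total exon length, from the deposited mean and from libraries A and B; right, percentage of protein-coding genes with an exon that overlaps another gene, by log2 difference. The median goes from 0.66 for the shortest genes to -0.60 for the longest, and the overlap from 46.8% for the genes furthest below the control to 11.2% for those furthest above.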

How the data were processed

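RNA from sorted cells was made into libraries from total RNA with the TruSeq RNA kit, per the labels' protocols. The authors deposited 1 table of FPKM values with 1 column per group, each the mean of that group's 2 samples, a unit that was inferred from the numbers. The submitters' processing notes name the build mm10. Which aligner, counter and annotation were used, and whether reads were counted by strand, is not given in the sources used here. Of 49588 lines, 2 name no gene and 3 repeat others exactly; 49324 of the 49583 genes were matched by ID to GENCODE M21 for symbols, types, positions and exon lengths. The analysis had assumed values per sample, which the table does not hold.

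In the spleen Ter column each value is the mean of 2 whole-number fragment counts, each divided by its library's depth and by the gene's length, and both libraries were solved from it. This method accepts only pairs that return the deposited mean, and gives no result for the control column, whose depth is unknown. It was tested on simulated data redrawn from genes recovered in all 4 columns of the first number format. That test used the same count model, so it cannot check the model itself or the other genes. Differences are log2(FPKM + 1) of spleen Ter minus control, called at an absolute value of 1; the pseudocount of 1 understates the change of low genes. Python 3.11.15, pandas 2.3.3, numpy 2.4.6 and numba 0.67.0 were used. Named genes are the 15 furthest in each direction with at least 20 FPKM in the higher column (protein-coding, passing over unnamed gene models, antigen receptor segments and genes set aside) and members of 54 gene lists. The comparison, its members and the lists were chosen with earlier results of these data known. Upstream sequences come from RefSeq (GRCm38.p6), taken for symbols with 1 entry. Some genes are not reported here.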

Additional observations from a re-analysis of the deposited data

How the results depend on the processing

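The counts of 1865 higher and 3532 lower genes moved by over 1.5 times with a pseudocount of 5 (718 higher and 1506 lower) and among protein-coding genes only (1167 and 2261). The higher count also did so with a filter of 5 FPKM (1088) and with quantile normalization (2895), and the lower count without genes whose exons overlap another gene (2307). Leaving out each spleen Ter library in turn gave 1315 to 2229 higher and 3075 to 4711 lower genes. The cause was not tested. The sign turned without library A for Rhd (-0.43), Kel (-0.16) and Birc5 (-0.087), and library A alone gave 4.87, 3.51 and 2.85. Over the recovered globin gene, Hbq1b, the difference was -0.34 from library B alone and 4.78 from library A alone. The median of 6 stroma and endothelium genes was 1.10, and -0.57 with a filter of 5 FPKM, which leaves fewer genes. No other named gene or list median past 2-fold changed sign under the alternatives run. The alternatives without sex-linked genes, with recovered genes only and without overlapping genes were chosen after seeing the data. No paired analysis was possible because the columns are group means and the recovered libraries carry no replicate number. The control has no error and no known depth, which limits every comparison; the number of fragments behind low spleen Ter values limits those genes further.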

Other observations

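Other gene groups gave these values, to be read against 13.9% higher and 26.3% lower over all genes. Growth factor receptor genes were 7 higher and 3 lower of 26; Csf2ra averaged 29.0 FPKM in spleen Ter and 9.14 in CD45+ cells, and Tnfrsf13c, the BAFF receptor of B cells, had 22.4 and 59.5 FPKM in libraries A and B of spleen Ter, against 165 in CD45+ cells. Monocyte and dendritic cell genes were 10 higher and 3 lower of 23, with Itgax, an integrin of dendritic cells, at 2.22 and 1.59 FPKM, against 11.1 in CD45+ cells. Immune suppression genes were 8 higher and 3 lower of 22; Lgals3, galectin 3, had 115 and 125 FPKM, against 15.5 in CD45+ cells, and Lag3, a checkpoint receptor, had 0.0314 and 0.456 FPKM, against 5.82 in CD45+ cells. Lysosome and phagocyte oxidase genes were 4 higher and 2 lower of 22, and Cd63, a granule and lysosome membrane protein, had 103 and 34.9 FPKM, against 1.76 in CD45+ cells.

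Cyclin and inhibitor genes were 4 higher and 4 lower of 15. Cdkn2d, an inhibitor of cyclin D kinases, had 70.4 and 94.3 FPKM, against 18.7 in CD45+ cells, and Mxd1, an antagonist of Myc, had 26.7 and 21.3 FPKM, against 4.55 in CD45+ cells. Myc itself had 82.4 and 70.1 FPKM, against 58.0 in CD45+ cells, while its partner Max had 9.01 and 19.1 FPKM, against 73.2 in CD45+ cells. Heat shock and stress genes were 2 higher and 4 lower of 17, with Ddit4, an inhibitor of mTOR, at 0.354 and 1.43 FPKM, against 23.3 in CD45+ cells. Splicing and RNA decay genes were 1 higher and 3 lower of 16, and glycolysis genes 4 higher and 3 lower of 24. These shares, and those of the heat shock and stress genes, were near or below the 13.9% and 26.3% of all genes.

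The libraries also differed in which genes they held at all. In spleen Ter 6054 genes had fragments in library A only and 1386 in library B only. In liver Ter these were 2336 and 1234, in MEP 2185 and 1464, and in CMP 1947 and 1617.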
